A study of Mus musculus with 6 samples.

Results

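Genes beside the deleted miR-34 loci were examined in small intestinal adenomas of ApcMin mice with and without miR-34a, miR-34b and miR-34c. They were annotated genes taken by the position of their start alone, the start being the lower coordinate whatever the strand. Beside Mir34a the start lay within 1.5 Mb on chromosome 4 (mm10, 148570000 to 151570000). Beside Mir34b and Mir34c it lay within 1.5 Mb on chromosome 9 (49600000 to 52600000). This gave 119 of the 46078 genes in the count tables, 76 beside Mir34a and 43 beside Mir34b and Mir34c. Knockout mice were miR-34a/b/c-/-;ApcMin/+ and wild-type mice were miR-34a/b/c+/+;ApcMin/+, so that both groups carried the ApcMin allele, a truncating mutation of the Wnt pathway regulator Apc. All mice were of a mixed C57BL6/SV129 strain and 18 weeks old. Each of the 6 RNA sequencing libraries came from a pool of 3 tumors of 1 mouse, with 3 mice per genotype. How far each deletion reaches, and what replaced it, was not given in the sources used here.

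The miR-34 family is made of short RNAs that p53 induces and that repress messenger RNAs paired with their seed, the bases at the 5′ end that find the target. Mir34b and Mir34c are processed from a shared primary transcript, whereas Mir34a has its own. DNA that flanks an allele made in embryonic stem cells is inherited with that allele until recombination separates them, which is why the neighbours of a deleted locus are of interest in mice of mixed strain. The counts carry no sequence variants, so which strain gave the DNA of these windows was not tested.

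The deleted sequences are shown because they define the center of each window. RefSeq (GRCm38.p6) lists miR-34a-5p at chr4:150068473-150068494 on the plus strand and miR-34b-5p at chr9:51103610-51103632 on the minus strand, and capitals mark the seed, bases 2 to 8.
miR-34a-5p: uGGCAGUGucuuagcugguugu
miR-34b-5p: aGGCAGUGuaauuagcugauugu
Both have the seed GGCAGUG. The Mir34c hairpin (chr9:51103034-51103110, minus strand) holds the same 7 letters 1 time, again in capitals.
Mir34c hairpin: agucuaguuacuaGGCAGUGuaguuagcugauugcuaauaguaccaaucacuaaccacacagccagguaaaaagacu

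Library totals ranged from 26375035 to 38354355 counts. The markers of intestinal epithelium and adenoma (10 genes, among them Epcam, Cdx2, Lgr5 and Axin2) summed to between 5142 and 5671 CPM (counts scaled to library size) in knockout tumors and between 5164 and 6356 CPM in wild-type tumors, with none at 0. Single markers were less even. Lgr5, Axin2, Sox9 and Nkd1 were lowest of all 6 libraries in knockout replicate 2. Nkd1 had 483, 95.8 and 509 CPM in knockout tumors against 394, 257 and 271 CPM in wild-type tumors. Among knockout tumors, Epcam, Cdh1, Vil1, Cdx1 and Cdx2 were highest in replicate 2, and Ascl2 lay between the others there. Along the first principal component (44.5% of the variance) knockout replicates 1 and 3 lay apart from the other libraries, at -42.7 and -41.6, with knockout replicate 2 at 26.7 and the wild-type replicates between -1.69 and 44.9.

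At the deleted genes themselves nothing could be read. Mir34a, Mir34b and Mir34c had 0 counts in all 6 libraries, wild-type included. With nothing counted the upper limit is 3 counts, or 0.0719 to 0.106 CPM depending on the library. The genotype labels therefore could not be checked at these genes. Gm37795, annotated only as a transcript to be classified, shares 17 exon bases with Mir34a on the same strand and had 2.32, 1.32 and 1.22 CPM in knockout tumors against 1.96, 1.76 and 0.895 CPM in wild-type tumors. The 2 groups overlapped (log2 fold change 0.08 ± 0.42, SE, adjusted p = 0.973, edgeR). Its counts are uncertain, since 44 annotated genes match it at 95% or more over at least 100 bases, among them Atp5b with 377704 counts, against 308 for Gm37795. Within 5 kb of Mir34c, the protein-coding gene 4833427G06Rik had 4 counts in knockout replicate 2 and 0 in each of the other 5 libraries. Btg4, a member of the antiproliferative BTG family known from oocytes and the nearest gene on the other side, had 0 counts in all 6.

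Of the 119 neighbours, 68 are annotated as protein-coding, 25 as long noncoding or unclassified transcripts, 11 as pseudogenes, 8 as miRNA genes and 7 as other small RNA genes. No count was found for 21 of them and 1 to 3 counts over all libraries for another 8. The filter on low counts kept 67 genes, 39 beside Mir34a and 28 beside Mir34b and Mir34c, of which 58 are protein-coding. Their mean levels ran from 0.357 CPM to 545 CPM, with a median of 19.3 CPM.

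None of these 67 genes differed between genotypes at an adjusted p below 0.05 (edgeR quasi-likelihood test, adjusted over all 17254 genes tested, of which 0.0927% passed), and the lowest adjusted p among them was 0.701. DESeq2 also called 0 of the 67 (lowest adjusted p = 0.113), while it called 0.638% of all genes. An unadjusted p below 0.05 was reached by 9 of the 67 (13.4%), against 5.85% of all genes tested. Of these 9, 6 were higher in knockout tumors (3.27% of all genes) and 3 lower (2.58% of all genes). The libraries of the 2 genotypes did not overlap for 12 neighbours (17.9%), 9 higher and 3 lower, against 11.2% of all genes, 5.86% higher and 5.34% lower. Without knockout replicate 3 the count at an unadjusted p below 0.05 was 4, without wild-type replicate 1 it was 5, and without wild-type replicate 2 it was 4. The share of all genes was not computed in these fits, so these counts cannot be set against it.

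Over each whole window the fold changes of the neighbours centered near 0. The median log2 fold change of knockout over wild-type was 0.02 beside Mir34a and 0.01 beside Mir34b and Mir34c, against 0.01 over all genes tested. Beside Mir34a 35 of 39 genes lay within 0.5 of 0 on the log2 scale, and beside Mir34b and Mir34c 17 of 28. The median size of the change regardless of sign was 0.19 beside Mir34a and 0.35 beside Mir34b and Mir34c, with 0.19 over all genes. The medians differed with distance. Beside Mir34a the median was 0.18 within 0.5 Mb (10 of 14 higher), -0.01 between 0.5 and 1 Mb and 0.17 beyond. Beside Mir34b and Mir34c it was 0.06 within 0.5 Mb and -0.39 between 0.5 and 1 Mb (3 of 8 higher), with 1 gene at 0.49 beyond. An unadjusted p below 0.05 was found for 3 of 33 genes within 0.5 Mb of the miRNA genes, for 5 of 27 between 0.5 and 1 Mb and for 1 of 7 beyond 1 Mb.

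**Figure D1:**
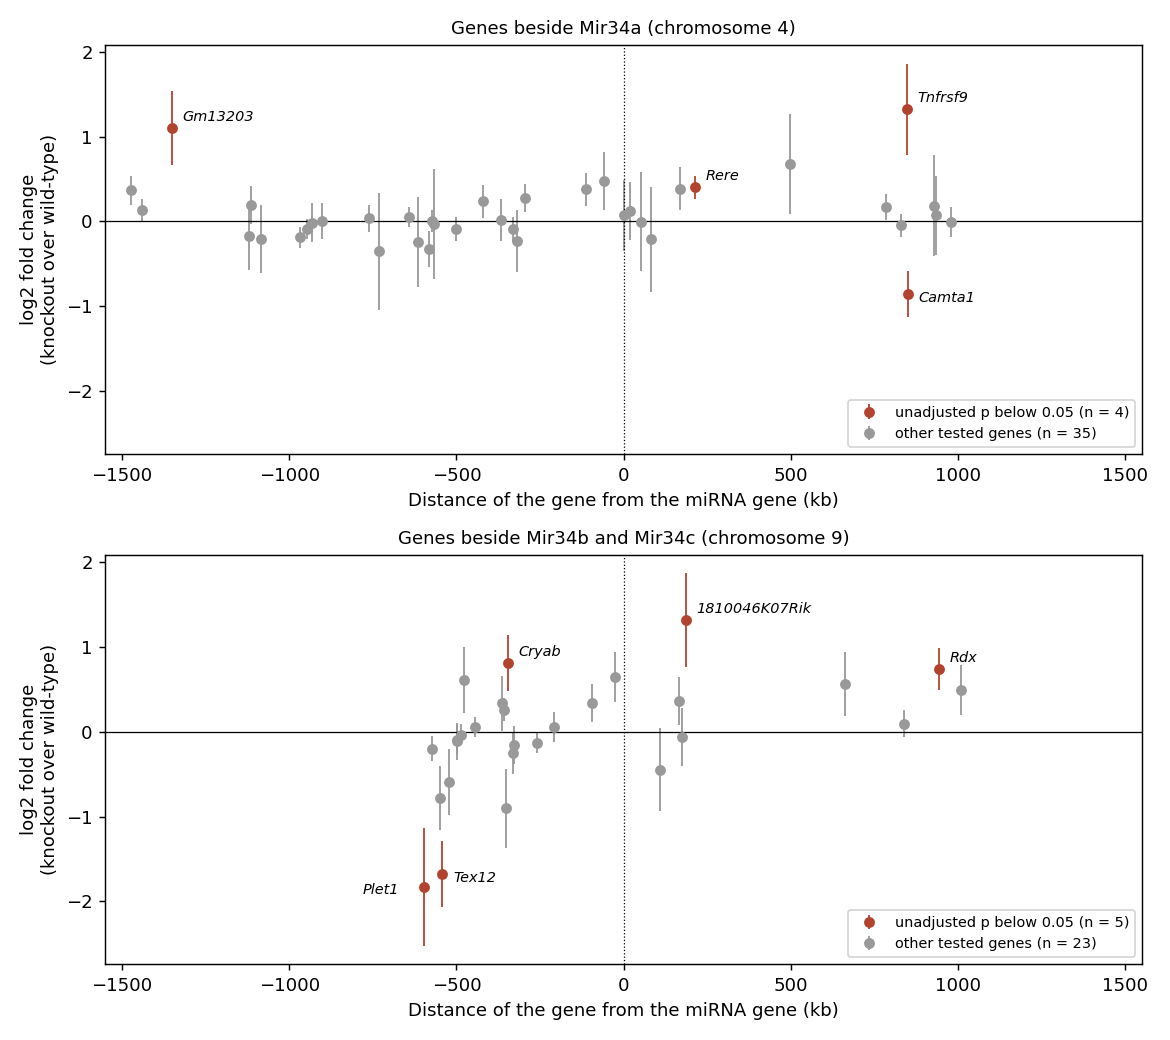
Log2 fold change (knockout over wild-type) of the 67 tested neighbours against their distance in kb from Mir34a (upper panel) and from Mir34b and Mir34c (lower panel), with bars of 1 SE. The 9 genes with an unadjusted p below 0.05 are labelled, with Tex12 and Plet1 lowest and Tnfrsf9 and 1810046K07Rik highest. Plet1 and Tex12 lie close together, at -597.6 and -541.8 kb, as do Tnfrsf9 and Camta1, at 846 and 848.8 kb.

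Beside Mir34a, 4 genes had an unadjusted p below 0.05. Rere encodes a nuclear corepressor with dipeptide repeats (chromosome 4, 150281646 to 150621966) and had 313, 317 and 324 CPM in knockout tumors against 275, 219 and 228 CPM in wild-type tumors. The knockout libraries were nearly alike and all lay above the wild-type ones (log2 fold change 0.40 ± 0.14, adjusted p = 0.793, edgeR). Camta1, a calmodulin-binding transcription activator (150917322 to 151861876), had 13.03, 7.26 and 12.1 CPM in knockout tumors against 23.6, 14.99 and 20.1 CPM in wild-type tumors. Its knockout values all lay below the wild-type values (-0.86 ± 0.27, adjusted p = 0.793, edgeR). Camta1 lies on the minus strand, so its transcription starts beyond the end of the window. Tnfrsf9, the costimulatory receptor 4-1BB of activated lymphocytes (150914562 to 150946102), had 5.49, 5.05 and 9.04 CPM in knockout tumors against 2.08, 1.10 and 4.64 CPM in wild-type tumors. The groups did not overlap, with a narrow gap between knockout replicate 2 and wild-type replicate 3 (1.32 ± 0.54, adjusted p = 0.793, edgeR). Without wild-type replicate 3 the log2 fold change of Tnfrsf9 was 2.04. Markers of T and NK cells (8 of 8 lower, 0 passed) summed to 20.3, 43.2 and 19.2 CPM in knockout tumors against 35.2, 41.2 and 40.8 CPM in wild-type tumors, with none of the list at 0. Knockout replicates 1 and 3, which lay apart on the first principal component, were low and knockout replicate 2 was the highest of all 6. Mast cell markers (5 of 5 higher, 0 passed) summed to between 223 and 637 CPM in knockout tumors and between 82.5 and 425 CPM in wild-type tumors, with none at 0. The part of these cells in the Tnfrsf9 values was not tested. Gm13203, a long intergenic noncoding RNA (148713703 to 148716581), had 1.48, 0.759 and 1.27 CPM in knockout tumors against 0.434, 0.377 and 0.811 CPM in wild-type tumors, and its groups overlapped at knockout replicate 2.

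Beside Mir34b and Mir34c, 5 genes had an unadjusted p below 0.05. Tex12, a component of the synaptonemal complex that joins chromosomes in meiosis (chromosome 9, 50557148 to 50561268), had 8, 11 and 18 counts in knockout tumors against 24, 45 and 48 counts in wild-type tumors. This is 0.282, 0.363 and 0.432 CPM in knockout tumors against 0.745, 1.41 and 1.34 CPM in wild-type tumors, and no knockout library reached a wild-type one. The smallest p among the neighbours was that of Tex12 (log2 fold change -1.68 ± 0.39, unadjusted p = 0.00341, adjusted p = 0.701, edgeR). Rdx encodes radixin, which ties actin filaments to the plasma membrane (52047150 to 52088737), and had 18.7, 20.5 and 33.2 CPM in knockout tumors against 13.4, 13.01 and 17.0 CPM in wild-type tumors. All knockout values lay above the wild-type values, with knockout replicate 3 far above the other 2 (0.74 ± 0.25, adjusted p = 0.793, edgeR). Plet1, a surface protein of trophoblast and epithelial progenitors (50494525 to 50505482), had 6.80, 11.5 and 8.15 CPM in knockout tumors against 7.79, 23.0 and 63.3 CPM in wild-type tumors. Wild-type replicate 1 lay within the knockout range, and the other 2 wild-type libraries above it (-1.83 ± 0.69, adjusted p = 0.793, edgeR). Without wild-type replicate 3 the log2 fold change of Plet1 was -0.80.

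Cryab, the small heat shock protein alpha B-crystallin (50752758 to 50756633), had 6.34, 4.35 and 3.72 CPM in knockout tumors against 3.63, 2.23 and 2.35 CPM in wild-type tumors (log2 change 0.81 ± 0.33, adjusted p = 0.793, edgeR). Its head-to-head partner Hspb2, a related small heat shock protein of muscle, had a fold change of the opposite sign, with 0.563, 0.231 and 0.288 CPM in knockout tumors against 0.869, 0.471 and 0.671 CPM in wild-type tumors (-0.90 ± 0.46, adjusted p = 0.793, edgeR). Cryab was separated between the genotypes, though narrowly, and Hspb2 overlapped. By GENCODE M21 exons the 2 genes share 252 bases on opposite strands. In the deposited coordinates they do not overlap, since Hspb2 ends at 50752354 and Cryab starts at 50752758. Whether reads from the 252 bases were counted for either gene cannot be told. Strand use in the counting was not given in the sources used here. Muscle, vessel and fibroblast marker lists had fold changes above 0, as Cryab and Rdx did, and 0 of their markers passed. Smooth muscle markers (6 of 6 higher) summed to between 482 and 582 CPM in knockout tumors and between 189 and 435 CPM in wild-type tumors. Endothelial markers (5 of 5 higher) summed to between 260.1 and 369 CPM in knockout tumors and between 158 and 216 CPM in wild-type tumors, with none of either list at 0. Fibroblast markers (6 of 6 higher) summed to 1322, 637 and 2444 CPM in knockout tumors against 931, 379 and 1218 CPM in wild-type tumors. The fibroblast sums overlapped, with knockout replicates 1 and 3, which lay apart on the first principal component, above every other library. Their part in the 2 genes was not tested. In such bulk samples more cells of a type and more RNA per cell cannot be told apart.

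**Figure D2:**
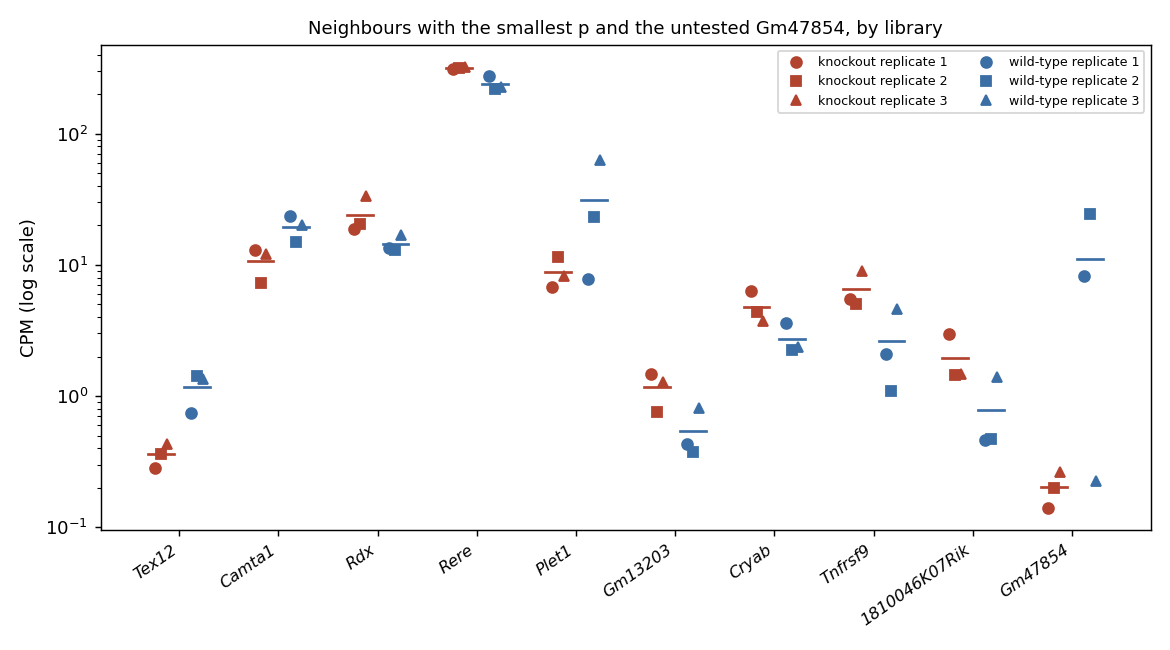
CPM (log scale) of the 9 neighbours with an unadjusted p below 0.05, in order of p, and of the untested transcript Gm47854. Each symbol is 1 library, with knockout tumors left of wild-type tumors, and horizontal lines are group means. For Gm47854, wild-type replicate 3 lies with the 3 knockout libraries between 0.141 and 0.264 CPM.

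A transcript that the low-count filter removed had a wide range, and was singled out after its values were seen. Gm47854, annotated as a long intergenic noncoding RNA 518 kb from Mir34b (chromosome 9, 51621425 to 51624874), had 4, 6 and 11 counts in knockout tumors against 267, 779 and 8 counts in wild-type tumors. It was thus at about the same low level in all 3 knockout libraries and in wild-type replicate 3, and far higher in wild-type replicates 1 and 2, at 8.29 and 24.5 CPM. With no count filter its log2 fold change was -5.70 ± 1.83 (adjusted p = 0.793, edgeR). The transcript is 96.5% identical over 837 bases to Gapdh, a glycolytic enzyme gene with 181715 counts over the 6 libraries, and 45 annotated genes in all match it at 95% or more over at least 100 bases. How reads with several alignments were handled was not given in the sources used here, so its counts are uncertain.

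Beside Mir34b and Mir34c lie the genes of 3 related coactivators of POU2F transcription factors, within 190.0 kb. Pou2af1 encodes OCA-B, the coactivator of B cells, whereas Colca2 and 1810046K07Rik are the mouse genes of the coactivators through which POU2F3 acts in tuft cells, the chemosensory cells of the gut epithelium. None of the 3 passed the test. 1810046K07Rik (ENSMUSG00000036027, 51289686 to 51328917) had 84, 44 and 61 counts in knockout tumors against 15, 15 and 50 counts in wild-type tumors, which is 2.96, 1.45 and 1.46 CPM in knockout tumors against 0.466, 0.471 and 1.40 CPM in wild-type tumors. The groups did not overlap, but wild-type replicate 3 came within 0.1 CPM of the lowest knockout library (log2 fold change 1.31 ± 0.55, adjusted p = 0.793, edgeR). Without wild-type replicate 3 the log2 fold change of 1810046K07Rik was 2.05, and without knockout replicate 1 it was 0.89. Colca2 (ENSMUSG00000079559, 51270258 to 51278554) had 3.94, 3.76 and 6.28 CPM in knockout tumors against 4.10, 3.55 and 3.24 CPM in wild-type tumors. Only knockout replicate 3 stood out among the 6 libraries (0.36 ± 0.28, adjusted p = 0.814, edgeR). The antisense transcript 2010007H06Rik, which by GENCODE M21 exons shares 57 bases with Colca2, likewise had its highest value in knockout replicate 3. It had 5.49, 3.83 and 7.58 CPM in knockout tumors against 7.29, 6.41 and 4.03 CPM in wild-type tumors.

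Tuft cell markers also had higher values in knockout tumors. All 14 tested markers of 16 were higher in knockout tumors, with a median log2 fold change of 0.79, and 0 of them passed over all genes tested. Their summed level was 372, 288 and 374 CPM in knockout tumors against 327, 227 and 303 CPM in wild-type tumors, which overlapped, and no marker was at 0 over all libraries. Avil made up much of these sums, with 181, 148 and 233 CPM in knockout tumors against 234, 143 and 177 CPM in wild-type tumors. The log2 fold change was only 0.02 ± 0.24 for Avil and 0.13 ± 0.34 for Dclk1. Pou2f3 itself, the transcription factor that specifies tuft cells, had 5.35, 4.19 and 4.87 CPM in knockout tumors against 3.48, 1.603 and 1.12 CPM in wild-type tumors (log2 change 1.22 ± 0.44, adjusted p = 0.793, edgeR). The part of tuft cell number in the 1810046K07Rik values was not tested.

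Pou2af1 (ENSMUSG00000032053, 51213690 to 51240079) had 3.91, 9.86 and 12.8 CPM in knockout tumors against 6.61, 15.9 and 13.9 CPM in wild-type tumors, with wide overlap (log2 fold change -0.45 ± 0.49, adjusted p = 0.849, edgeR). In each genotype its lowest value was in replicate 1. Of 12 tested B and plasma cell markers 9 were lower in knockout tumors, with a median log2 fold change of -0.85, and 0 passed. The list summed to 2239, 5943 and 5650.1 CPM in knockout tumors against 6929, 10751 and 9101 CPM in wild-type tumors, with none at 0 over all libraries, and the summed levels did not overlap between genotypes. The lowest sum in each genotype was also in replicate 1. Most of each sum was Igha, at 1153, 3479 and 3331 CPM in knockout tumors against 4059, 6034 and 5515 CPM in wild-type tumors. The 3 higher markers were Cd22 (log2 fold change 0.73 ± 0.42), Ighm (0.10 ± 0.27) and Sdc1 (0.04 ± 0.18). The part of B and plasma cells in the Pou2af1 values was not tested.

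**Figure D3:**
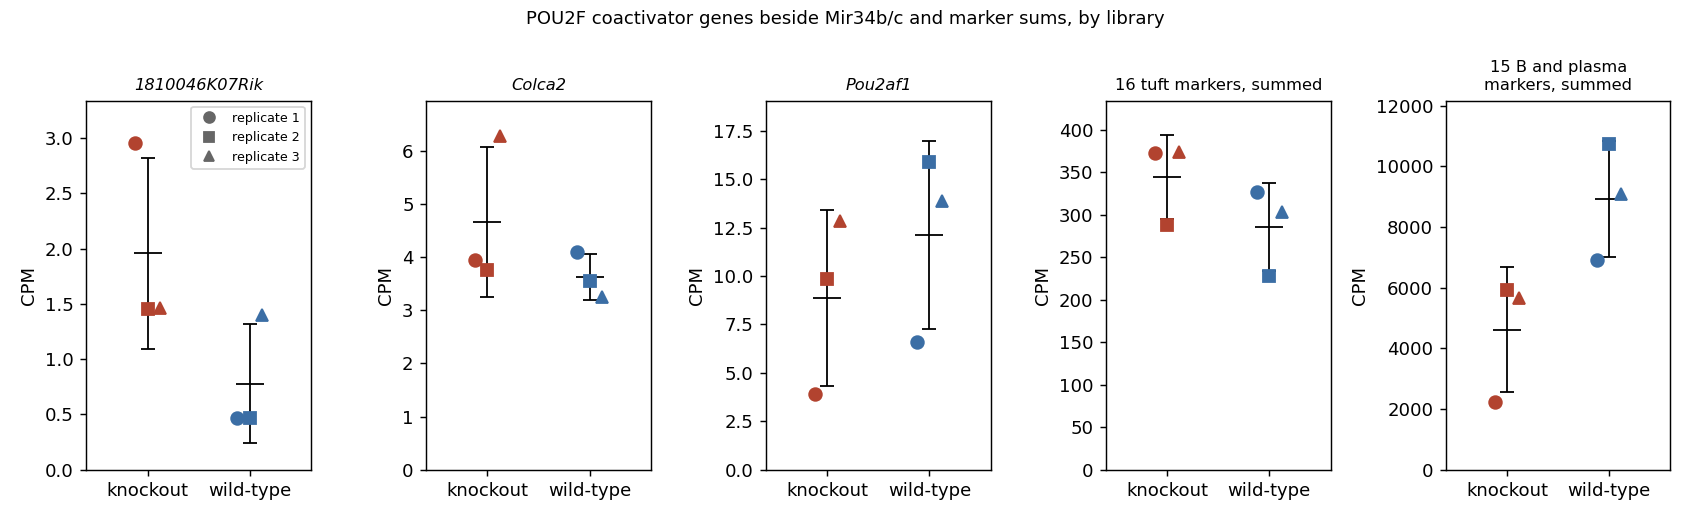
CPM per library of the 3 POU2F coactivator genes beside Mir34b and Mir34c, and the summed CPM of 16 tuft cell markers and 15 B and plasma cell markers, with knockout tumors left of wild-type tumors. Bars are means with SD (3 mice each), and 1810046K07Rik is the only coactivator whose genotypes do not overlap here.

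The promoter of 1810046K07Rik holds the octamer ATGCAAAT, the letters to which POU2F factors bind, and is shown for that reason. RefSeq (GRCm38.p6) gives 2 starts for the gene, and the 300 bases at the outer one (chr9:51328869-51329168, minus strand, 250 bases before the start and 50 after) hold the octamer 2 times, in capitals, beginning 86 and 55 bases before the start and in opposite directions without overlap.
1810046K07Rik promoter: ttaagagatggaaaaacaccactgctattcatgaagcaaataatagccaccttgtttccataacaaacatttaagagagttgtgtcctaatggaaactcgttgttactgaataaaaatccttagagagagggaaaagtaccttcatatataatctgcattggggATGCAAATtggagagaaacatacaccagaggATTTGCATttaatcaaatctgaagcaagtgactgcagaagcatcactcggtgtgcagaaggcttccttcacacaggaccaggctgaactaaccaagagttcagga
Searched on both strands, the octamer occurs in 1.74% of 32851 RefSeq promoters of this length and occurs at least 2 times in 0.107% of them. Among the neighbours, 70 genes have 88 promoters in that set. The octamer is in 3 of these 88 promoters, those of the 3 genes 1810046K07Rik, Plet1 and Il18. The letters are not in the window at the inner start, nor in the promoter windows of Colca2 or Pou2af1. A match describes the sequence and does not show binding.

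Of 5 sugar metabolism genes beside Mir34a, 0 passed. Eno1, the glycolytic enzyme enolase and the most abundant neighbour per kilobase of exon after Sdhd, had 589, 649 and 614 CPM in knockout tumors against 344, 407 and 665 CPM in wild-type tumors. The knockout values were tightly grouped and lay above wild-type replicates 1 and 2 but below replicate 3 (log2 fold change 0.39 ± 0.26, adjusted p = 0.808, edgeR). The annotated copy Gm5855, with 1915 counts over all libraries, is 96.3% identical to Eno1 over 1306 bases. H6pd, which opens the pentose phosphate route in the endoplasmic reticulum and lies 59.4 kb from Mir34a, likewise had all knockout values above wild-type replicates 1 and 2 and below replicate 3, with 51.2, 73.5 and 72.8 CPM in knockout tumors against 35.7, 32.1 and 74.3 CPM in wild-type tumors. Pgd, of the cytosolic pentose phosphate route, averaged 489 ± 91.2 CPM in knockout tumors and 486 ± 95.5 CPM in wild-type tumors (SD, n = 3 each).

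The fructose transporter gene Slc2a5, 50.7 kb from Mir34a, had 48.0, 160.3 and 29.2 CPM in knockout tumors against 68.4, 94.5 and 75.1 CPM in wild-type tumors. Its neighbour Slc2a7, of the same transporter family, had 3.31, 15.4 and 3.21 CPM in knockout tumors against 9.68, 7.64 and 7.94 CPM in wild-type tumors. In both genes knockout replicate 2 was the highest library of all and knockout replicates 1 and 3 the lowest. Beside Mir34b and Mir34c, knockout replicates 1 and 3 were also the lowest for Bco2, a carotenoid-cleaving oxygenase of mitochondria (chromosome 9, 50533087 to 50555181). Knockout replicate 2 was not the highest there but lay within the wild-type range. Bco2 had 23.1, 60.5 and 23.8 CPM in knockout tumors against 55.5, 63.6 and 65.6 CPM in wild-type tumors (log2 change -0.78 ± 0.38, adjusted p = 0.793, edgeR). Without knockout replicate 2, Bco2 was the only one of the 67 genes that passed (-1.39, adjusted p = 0.0122, edgeR), in a fit that called 0.23% of all genes. The library left out there was the only knockout library within the wild-type range of Bco2, so the pass follows from that choice. Il18, an epithelial cytokine gene, had 21.2, 52.7 and 26.9 CPM in knockout tumors against 35.5, 69.9 and 46.3 CPM in wild-type tumors, with overlap. Absorptive enterocyte markers, a list added after the values were seen, summed to 8979, 21766 and 12039 CPM in knockout tumors against 12691, 12052 and 19187 CPM in wild-type tumors, with 7 of 12 lower and none at 0, and were highest in knockout replicate 2. Their part in these genes was not tested.

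**Figure D4:**
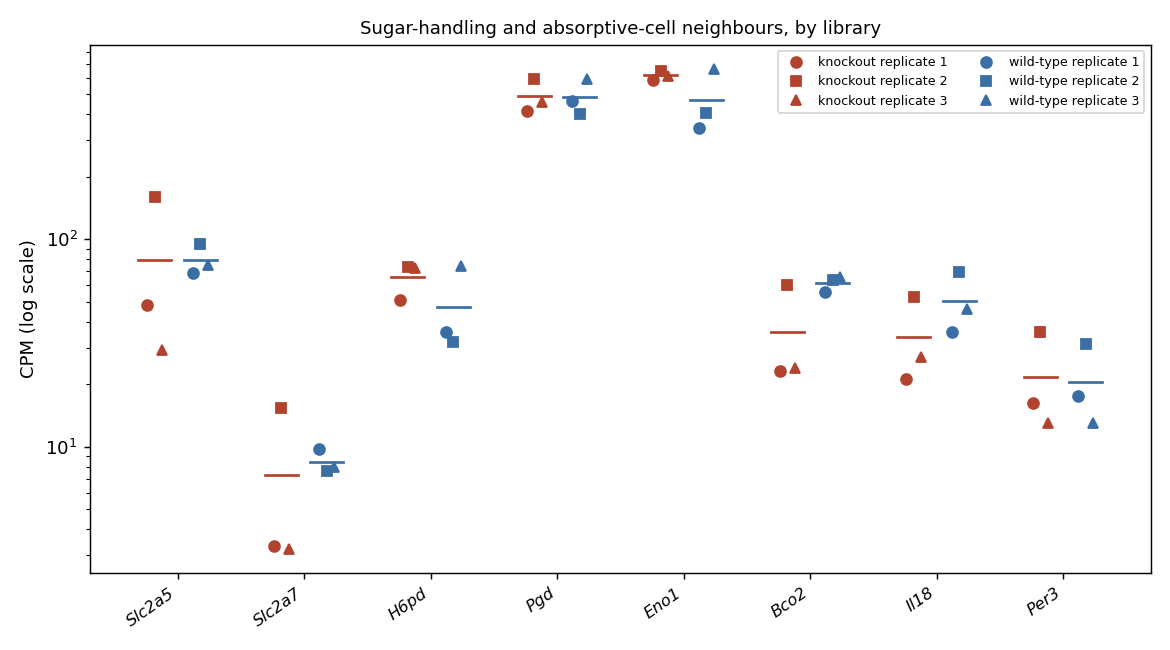
CPM (log scale) per library of the sugar-handling genes beside Mir34a, of Bco2 and Il18 beside Mir34b and Mir34c, and of the clock gene Per3. Knockout tumors are left of wild-type tumors and horizontal lines are group means, and for Slc2a5, Slc2a7 and Bco2 knockout replicate 2 lies well above the other 2 knockout replicates.

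Of 4 neighbours with roles in Wnt signaling and adenoma growth, 0 passed. Ctnnbip1, an inhibitor of the binding of beta-catenin to TCF factors, averaged 23.2 ± 1.98 CPM in knockout tumors and 24.7 ± 2.86 CPM in wild-type tumors (SD, n = 3 each). Dixdc1, a positive regulator of Wnt signaling, averaged 5.08 ± 1.46 CPM in knockout tumors and 4.03 ± 1.13 CPM in wild-type tumors (SD, n = 3 each). Errfi1, a feedback inhibitor of the EGF receptor, averaged 117 ± 15.6 CPM in knockout tumors and 104 ± 13.6 CPM in wild-type tumors (SD, n = 3 each). With the zinc finger gene Casz1, 3 of these 4 had a fold change above 0, and each overlapped between genotypes.

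Of 6 mitochondrial genes 0 passed, with 3 above and 3 below 0. Sdhd, a membrane anchor of succinate dehydrogenase and at 228 CPM per kilobase of exon the most abundant neighbour on that scale, had 246, 353 and 211 CPM in knockout tumors against 250.04, 328 and 299 CPM in wild-type tumors. Slc25a33, a mitochondrial pyrimidine nucleotide carrier 294 kb from Mir34a, was separated between genotypes at a small difference, with 9.72, 9.27 and 9.37 CPM in knockout tumors against 7.63, 8.39 and 7.41 CPM in wild-type tumors (log2 change 0.28 ± 0.17, adjusted p = 0.805, edgeR). Dlat, a subunit of pyruvate dehydrogenase, averaged 105 ± 8.58 CPM in knockout tumors and 101 ± 5.20 CPM in wild-type tumors (SD, n = 3 each). Timm8b, a chaperone of mitochondrial import, had a log2 fold change of -0.10 ± 0.17 and Fdx1, the electron carrier ferredoxin, of 0.09 ± 0.16.

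The 4 genes of cytoskeleton and adhesion all had a fold change above 0 and 0 passed. Layn, a hyaluronan receptor and the nearest tested gene to Mir34c at 25.9 kb, had 1.44, 1.02 and 1.44 CPM in knockout tumors against 0.900, 0.786 and 0.811 CPM in wild-type tumors. The wild-type values were close together and all knockout values lay above them (log2 fold change 0.64 ± 0.29, adjusted p = 0.793, edgeR). Clstn1, a calsyntenin, and Kif1b, a kinesin motor, had log2 fold changes of 0.24 ± 0.20 and 0.04 ± 0.16.

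Of the 3 genes listed under RNA and translation, Tardbp, Srm and Lzic, 0 passed. Lzic, a relative of the Wnt regulator Ctnnbip1 rather than an RNA gene, had a log2 fold change of 0.01 ± 0.13. Srm, the spermidine synthase gene at the far end of the Mir34a window, was separated between genotypes, with 50.01, 33.1 and 35.4 CPM in knockout tumors against 32.0, 29.4 and 30.6 CPM in wild-type tumors (0.37 ± 0.17, adjusted p = 0.793, edgeR). Knockout replicate 1 was the highest there and the other 2 knockout libraries lay just above the wild-type ones. The RNA-binding protein gene Tardbp averaged 263 ± 23.4 CPM in knockout tumors and 239 ± 15.2 CPM in wild-type tumors (SD, n = 3 each). Of 4 tested genes of DNA damage and stress, 1 was above 0 (Cryab), 3 were below and 0 passed. Park7, an oxidative stress sensor, averaged 131 ± 19.4 CPM in knockout tumors and 135 ± 3.85 CPM in wild-type tumors (SD, n = 3 each). Of 3 tested immune genes 0 passed, with 2 above 0 and 1 below. Pik3cd, the leukocyte PI3-kinase delta gene, averaged 9.50 ± 2.22 CPM in knockout tumors and 9.38 ± 1.65 CPM in wild-type tumors (SD, n = 3 each). The clock gene Per3 ranged from 12.97 to 35.6 CPM in knockout tumors and from 12.9 to 31.4 CPM in wild-type tumors, with replicate 2 highest in each genotype.

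Gpr157, a receptor gene 18.8 kb from Mir34a with 16 such partial matches to other genes, averaged 5.41 ± 2.43 CPM in knockout tumors and 4.96 ± 0.811 CPM in wild-type tumors (SD, n = 3 each). Sik2, a salt-inducible kinase gene 94.0 kb from Mir34c, averaged 14.0 ± 3.32 CPM in knockout tumors and 11.05 ± 1.36 CPM in wild-type tumors (SD, n = 3 each), and shares 1429 exon bases with Ppp2r1b on the other strand. Pex14, a peroxisomal import gene, named after its values were seen, was 1 of the 3 genes with all knockout values lower, at 19.6, 19.1 and 18.6 CPM in knockout tumors against 21.7, 20.2 and 23.4 CPM in wild-type tumors (log2 change -0.19 ± 0.12, adjusted p = 0.807, edgeR). It shares 1776 exon bases with the antisense transcript Gm17029. Plet1, Slc25a33, Casz1, Ctnnbip1 and Tardbp also share exon bases with a gene on the other strand, each with between 1 and 110 counts over all libraries. Timm8b, with 4894 counts, shares 81 exon bases with Nkapd1 on the other strand, which had 5505 counts.

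Among the genes that the filter removed, Cort, a neuropeptide gene beside Mir34a, had 0 counts in each knockout library against 13, 7 and 0 counts in wild-type tumors.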

How the data were processed

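The authors deposited 1 table of raw counts by Ensembl gene for each library. The submitters' processing notes name TopHat2 2.1.0, HTSeq 0.6.1 and mm10. Strand setting, annotation release and handling of reads with several alignments were not given in the sources used here, so overlapping genes and near-identical copies are uncertain. File starts count from 0, and coordinates are written from 1. Symbols and exons came from GENCODE M21, which named 45143 of 46078 genes. Shared exon bases were read from these exons, which can differ from the gene spans in the deposited counts.

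Groups were taken from the titles. All 6 libraries were fitted together with edgeR 4.0.16 in R 4.3.3 (filterByExpr, 17254 genes; TMM factors 0.914 to 1.09; robust quasi-likelihood F-test; Benjamini-Hochberg adjustment at 0.05 over all genes tested). The SE of a log2 fold change was the absolute fold change divided by the root of F, and CPM (counts scaled to depth) used TMM library sizes. No library was a repeat of another (chi-square over its degrees of freedom at least 47.0 for each pair). Precision is limited by 3 mice per group, and the 3-count limit covers counting error only. The fit was tested on simulated data with large changes planted in 200 genes, which does not cover changes as small as those of most neighbours. Copies were sought with BLAST 2.17.0 at 95% identity over at least 100 bases.

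Members, lists and the rule for named genes were chosen with earlier results of these data known. Members were named if they lay within 5 kb of a miRNA gene, passed the threshold, had 1 of the 6 smallest p or 1 of the 3 highest levels per kilobase of exon in their window, were among the 3 nearest on either side, or belonged to a role list. Gm47854, Cort, Btg4, Pex14 and the enterocyte list were added after their values were seen. Alternatives were DESeq2 1.42.0, limma-voom (limma 3.58.1), other size factors, library size alone, other count filters, a replicate block, each library left out, a 0.5 Mb window and membership by gene midpoint.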

Additional observations from a re-analysis of the deposited data

How the results depend on the processing

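With 3 mice per genotype, small differences in single neighbours were not detectable. No neighbour was called in any fit on all 6 libraries with the low-count filter, and 0 to 1 was called when a library was left out. Bco2 was called without knockout replicate 2 only by construction, since that removes its only knockout library within the wild-type range. Gm47854 counts as called without wild-type replicate 3 only by construction, since that removes its low wild-type library and it then passes the filter through the other 2. Over all genes 16 were called, 110 with DESeq2, and 9 to 41 with a library left out. The number of neighbours with an unadjusted p below 0.05 was 9 of 67, and 4 to 13 with a library left out. It was 3 of 33 in the 0.5 Mb window. The number that did not overlap was 12 of 67, and 13 to 23 with a library left out, where fewer libraries can overlap. It was 6 of 33 in the 0.5 Mb window. The share of all genes at these 2 measures was not computed in the alternative fits, including the replicate block. The median log2 fold change beside Mir34a ranged from -0.079 to 0.12 with a library left out, was 0.18 in the 0.5 Mb window, and enterocyte markers ranged from -0.33 to 0.31. The labels state no batch shared by same-numbered libraries, so the numbers were not taken as pairs. Same-numbered libraries deviated together with r of 0.27, 0.31 and 0.09, which does not settle whether they are pairs. With a replicate block 16 genes and 0 neighbours were called, and 12 neighbours had an unadjusted p below 0.05. The block lowered the SE of some neighbours, as for Il18 from 0.39 to 0.13, and raised that of others, as for Clstn1 from 0.20 to 0.21. Of 44 named tested neighbours, 27 kept their sign under every alternative in which they were tested, among them all 9 with an unadjusted p below 0.05; Tex12, Gm13203, Layn and Hspb2 were not tested with at least 1 CPM in 3 libraries. With a library left out, Plet1 ranged from -2.30 to -0.80, 1810046K07Rik from 0.89 to 2.05 and Tnfrsf9 from 0.96 to 2.04. The sign turned for Pgd (-0.0037) and Lzic (-0.0051) with at least 1 CPM in 3 libraries, for Park7 (0.036) and 2010007H06Rik (0.019) with library size alone, and for Slc2a5 with DESeq2 size factors (0.0033), no count filter (0.0036) and DESeq2 (0.0038). With a library left out the log2 fold change ranged from -0.079 to 0.32 for Casz1, -0.15 to 0.17 for Pgd, -0.080 to 0.13 for Kif1b, -0.072 to 0.054 for Lzic, -0.14 to 0.18 for Pik3cd, -0.28 to 0.28 for Gm37795, -1.04 to 0.39 for Slc2a5, -1.37 to 0.15 for Slc2a7 and -0.17 to 0.049 for Park7. It ranged from -0.49 to 0.51 for Per3, -0.35 to 0.030 for Sdhd, -0.17 to 0.035 for Timm8b, -0.0055 to 0.10 for Dlat, -0.00045 to 0.20 for Fdx1, -0.31 to 0.31 for Gpr157, -0.076 to 0.22 for Ppp2r1b and -0.35 to 0.15 for 2010007H06Rik. The cause was not tested.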
